A study of Mus musculus with 2 samples.

Results

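Glycolysis and the response to low oxygen were followed through 31 genes, chosen by symbol among the 16263 genes of 2 deposited expression tables, and all 31 were found (the gene now called Ero1a is listed there as Ero1l). The tables describe mouse bone marrow-derived macrophages, 1 library from wild-type (WT) mice and 1 from mice labelled as lacking SIRPα on both alleles (SIRPα-KO), a receptor of myeloid cells that binds CD47. Both lines are C57BL/6 per the labels, and their age and sex are not given there. Marrow cells of both genotypes were grown for 5 days with M-CSF-conditioned medium and then exposed to 20 ng/ml interferon-γ and 100 ng/ml LPS over 6 h, with a reagent named mCD47.ex present. Each library came from the mixed cells of 5 mice, so there is no replicate error, no p-value is given, and every difference below describes these 2 libraries.

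Glycolysis splits glucose into pyruvate in the cytosol. Its early steps take up glucose, trap it as a phosphate and spend ATP, and its lower steps return ATP and NADH before pyruvate is turned into lactate and exported. HIF-1, a dimer of HIF-1α and ARNT, raises transcription of many of these genes, and prolyl hydroxylases of the EGLN family mark HIF-1α for destruction when oxygen is present. Macrophages activated by LPS are known to increase glucose uptake and lactate output and to stabilise HIF-1α.

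Among genes that reached 10 FPKM in either library, the widest differences lay at the entry of the pathway. The transcripts of Pfkfb3, Slc2a1 and Hk2 were 4.70-fold, 2.36-fold and 2.20-fold lower in the SIRPα-KO library, whereas Pfkp was 1.49-fold higher and Hk3 nearly equal. Of 11 genes of the lower pathway, 10 were lower in SIRPα-KO, as were 43.8% of all genes that reached 1 FPKM in either library. Those of the 10 that reached 10 FPKM were lower by 1.07-fold (Gapdh) to 1.43-fold (Pgam1). The weakly expressed Aldoc and Ldhb were 2.62-fold and 1.74-fold lower. Hif1a itself was at 211 FPKM in the WT library and 190 in the SIRPα-KO library. FPKM is a count of fragments divided by transcript length and library size, which allows levels of different genes to be compared. Differences, unless called folds of FPKM, are log2(FPKM + 1) in SIRPα-KO minus WT, a scale that understates differences of weakly expressed genes.

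Of the 31 genes, 30 reached 1 FPKM in at least 1 library, the limit for a gene to be counted here; Egln3 did not, at 0.79 FPKM in the WT library and 0.43 in the SIRPα-KO library. Pfkm, Aldoc and Pfkfb2 passed only through the library in which they were higher. Among the 30, 3 were lower by at least 2-fold and 0 higher, beside 4.3% lower and 3.43% higher among all 10092 genes counted. At a limit of 1.5-fold, 6 of the 30 were lower and 0 higher, where 10.2% and 10.9% of all genes were. The median difference of the 30 was -0.35, against 0.06 over all genes counted, and 24 of them were below 0, as were 43.8% of all genes counted. The members were chosen with earlier results of these data known, so these counts are descriptions. The plot of levels in each library shows that the genes spanned 0.43 to 1094 FPKM.

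**Figure D1:**
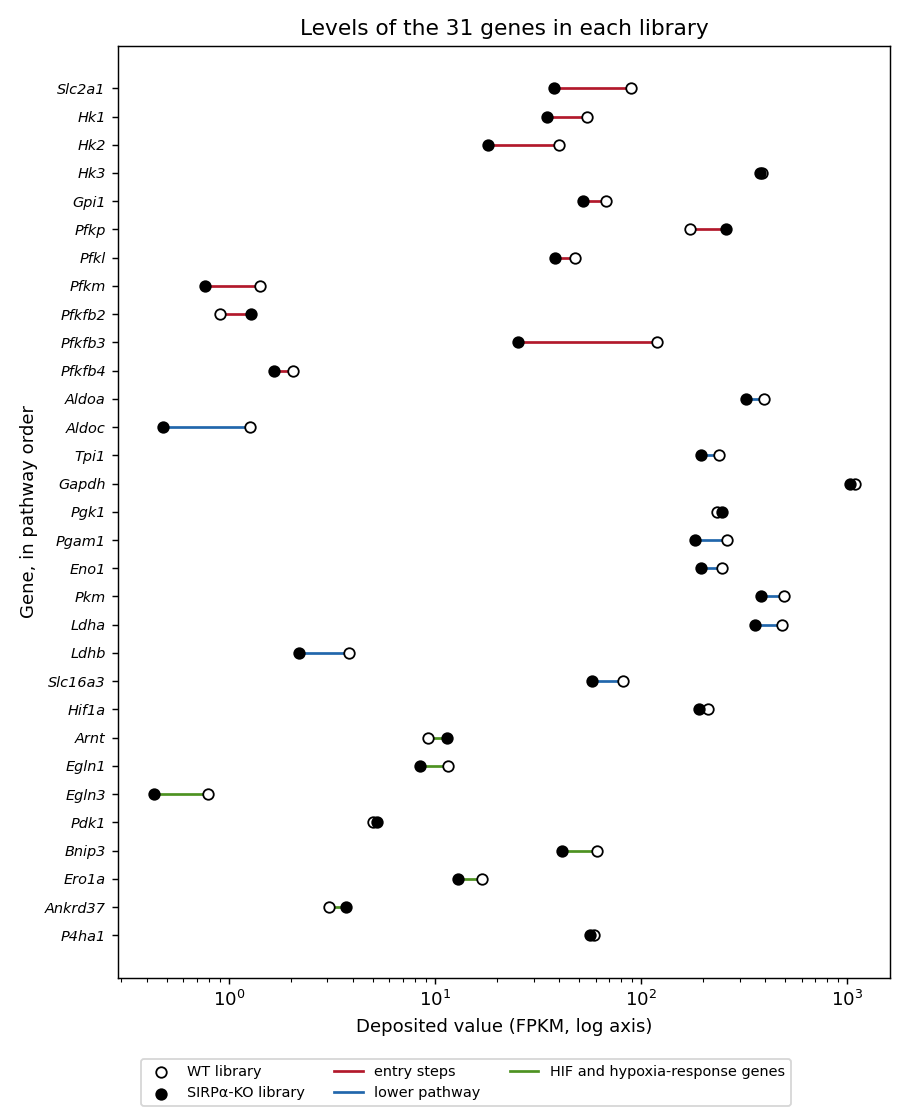
Deposited value of each of the 31 genes in the WT library (open circles) and the SIRPα-KO library (filled circles), in FPKM on a log axis, ordered from glucose uptake to hypoxia-response genes. The longest line among well expressed genes joins the Pfkfb3 values of 119 and 25.3 FPKM, and Gapdh at 1094 and 1027 FPKM is the most abundant gene.

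Some facts of the libraries bear on all these values. The depth estimated from the steps between low values was about 11000000 reads in each library. Sirpa was at 154 FPKM in the WT library and 71.5 in the SIRPα-KO library, so its transcript was still present, the targeted allele is not described in the sources used here, and the name SIRPα-KO repeats the label. Xist was at 47.5 FPKM in the WT library and 0.91 in the SIRPα-KO library and the Y-linked Ddx3y was listed at 0 and at 11.6 respectively, so genotype and the sex of the pooled mice cannot be told apart. Rows of ribosomal RNA held 0.351% of the summed values in the former library and 0.0382% in the latter, and Malat1, an RNA of the nucleus, had 83.7 and 32.9 FPKM. Of 10 macrophage markers all were present, with a summed level of 11260 FPKM in the WT library and 11040 in the SIRPα-KO library. Lyz2 alone held 7106 and 7208 of these sums, so they say little of the other markers. Of the 10, 6 had a difference below 0, as had 43.8% of all genes counted, and 4 above. Csf1r was the 1 marker lower by at least 2-fold, at 248 and 110, beside 4.3% of all genes counted. Cd14 (290 and 164) and Fcgr1 (466 and 325) were lower by less.

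Markers of other cells that marrow cultures can hold were also measured. Of 14 neutrophil and granulocyte precursor markers, 13 were in the tables and 12 were counted. Of the 12, 10 were below 0, as were 43.8% of all genes counted. Of the 12 markers, 5 were lower by at least 2-fold in SIRPα-KO and 0 higher, beside 4.3% and 3.43% of all genes counted. The summed level was 552 FPKM in the WT library and 297.6 in the SIRPα-KO library. Retnlg, too low to be counted, was listed at 0.46 FPKM in WT, about 3 reads, and at 0 in SIRPα-KO. The level of S100a9 was 202 and 98.1, whereas Mpo (2.38 and 3.34) and Cxcr2 (8.66 and 11.7) were higher in SIRPα-KO. Of 4 dendritic markers counted, 2 were higher by at least 2-fold, beside 3.43% of all genes counted. They were Ccr7 (6.93 and 23.8) and Dpp4 (1.32 and 4.95), whereas Xcr1 (3.3 and 2.99) and Clec9a (3.36 and 3.34) were near equal. Of the dendritic markers below 1 FPKM, Flt3 (0.34 and 0.1) and Cd209a (0.18 and 0) were lower and Zbtb46 (0.2 and 0.7) was higher. The dendritic list summed to 15.63 and 35.89 FPKM, of which Ccr7 alone held 6.93 and 23.8. Lymphoid markers summed to 13.16 and 9.35, and stromal and endothelial markers to 11.51 and 11.21. Erythroid markers summed to 3.3 and 3.56, with Klf1 at 0 in both. The part of these cells in the differences of glycolysis genes was not tested, and in such bulk RNA fewer cells of a type and less RNA per cell cannot be told apart.

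Glucose enters through GLUT1, encoded by Slc2a1 (gene number 20525, chromosome 4). Slc2a1 was at 89 FPKM in the WT library and 37.6 in the SIRPα-KO library, a difference of -1.22. These values stand for about 3190 and 1350 reads, and the log2 ratio of FPKM, -1.24, had a counting interval of -1.33 to -1.15. Such intervals (95%, exact binomial on the estimated reads) cover counting error only, not differences between mice or cultures. Slc2a1 ranked 283 from the lowest among the 10092 differences.

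Hexokinases then phosphorylate glucose, and the isozymes differed among themselves. Hk2, the inducible isozyme that can bind mitochondria, was at 39.7 FPKM in the WT library and 18.1 in the SIRPα-KO library (difference -1.09). Hk1, the widespread isozyme, was at 54.7 and 34.9 (-0.64). Hk3 was at 384 and 375 (-0.03), and was 0.00 or -0.11 with other scalings of the libraries. Hk3 was thus the most abundant hexokinase transcript in both libraries, with 80.3% of the summed level in WT and 87.6% in SIRPα-KO. The share of Hk2 was 8.3% and 4.22%. Because of Hk3, the sum of the 3 hexokinases was 478 FPKM in the WT library and 428 in the SIRPα-KO library, a 1.12-fold difference, even though Hk1 and Hk2 were each lower by more.

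Gpi1, the isomerase that turns glucose 6-phosphate into fructose 6-phosphate, was at 67.6 FPKM in the WT library and 51.9 in the SIRPα-KO library (-0.38). Phosphofructokinase, which makes fructose 1,6-bisphosphate and commits sugar to glycolysis, was encoded mostly by Pfkp, the platelet isozyme. Pfkp was at 172 FPKM in the WT library and 257 in the SIRPα-KO library (0.58), the highest difference among the 30 genes. Pfkl, the liver isozyme, was at 47.6 and 38.2 (-0.31). Pfkm, the muscle isozyme, was at 1.41 and 0.76 (-0.45). Pfkp and Pfkl therefore lay on opposite sides of equality, and the sum of the 3 isozymes was 1.34-fold higher in SIRPα-KO, at 221 and 296 FPKM. Pfkp carried 77.8% of that sum in WT and 86.8% in SIRPα-KO. On the GRCm38 annotation, 5.58% of the exon bases of Pfkp overlap exons of Pitrm1 on the other strand, and 17.1% of the 50-base words of the listed Pfkp transcripts also occur in Pitrm1 on either strand. Pitrm1 was at 9.77 and 24.67 FPKM. Whether the authors counted with strand is not given in the sources used here, so reads of the overlap cannot be told apart.

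The PFKFB enzymes make and degrade fructose 2,6-bisphosphate, the strongest activator of phosphofructokinase. Pfkfb3 (gene number 170768, chromosome 2), the form with the highest kinase activity, was at 119 FPKM in the WT library and 25.3 in the SIRPα-KO library. Its difference of -2.19 ranked 53 from the lowest among 10092 genes, and its log2 ratio of FPKM, -2.23, had a counting interval of -2.34 to -2.13. Of the 30 genes, Pfkfb3 alone was lower by at least 3-fold, as were 1.39% of all genes counted. Pfkfb4 was at 2.04 and 1.66 FPKM and Pfkfb2 at 0.9 and 1.27, and the counting intervals of their log2 ratios, -0.79 to 0.21 and -0.22 to 1.27, include equality. Pfkfb3 thus made up 97.6% of the summed PFKFB level in the WT library and 89.6% in the SIRPα-KO library. That sum was 122 and 28.3 FPKM. Relative to Pfkp in the same library, the level of Pfkfb3 was 69.3% in WT and 9.88% in SIRPα-KO.

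**Figure D2:**
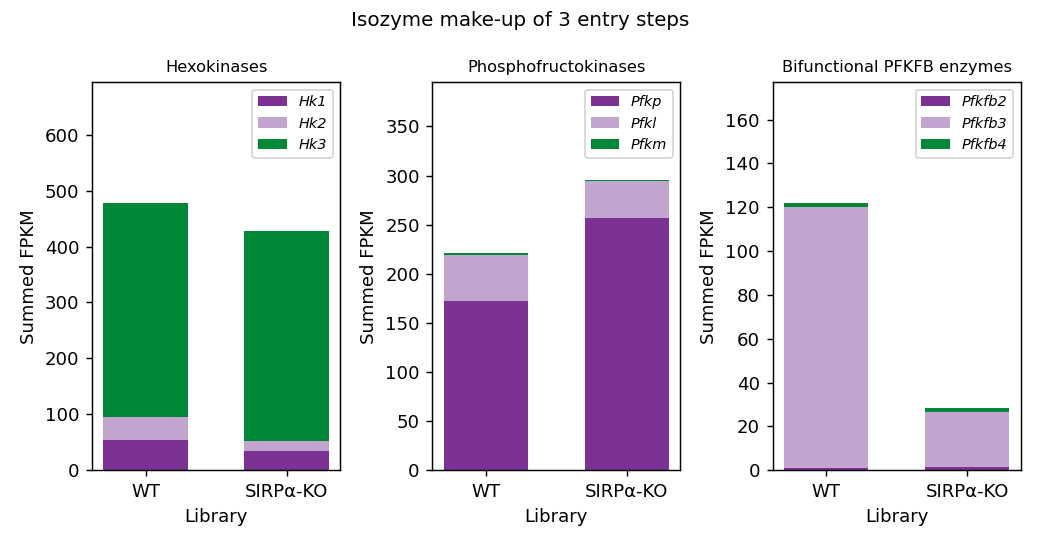
Summed FPKM (bars from 0) of the hexokinases, phosphofructokinases and PFKFB enzymes in the WT and SIRPα-KO libraries, split by isozyme, with 1 library per bar. The hexokinase bars are close in height (478 and 428 FPKM) and mostly Hk3, the phosphofructokinase bar is higher in SIRPα-KO (221 and 296), and the PFKFB bar is lower (122 and 28.3).

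The sequence before the start sites of these genes is shown for the 3 genes lower by at least 2-fold and for the isozymes Hk3 and Pfkp, which were not lower by that limit. All sequences are from RefSeq promoter windows on GRCm38.p6, a later build than the mm9 named in the submitters' processing notes, cut to the longest stretch of the 250 bases before the start that overlaps no annotated exon. They run 5′ to 3′ on the gene's strand. Capitals mark ACGTG or GCGTG on either strand, the core letters of the hypoxia response element that HIF-1 binds. Of the 2 Pfkfb3 windows the one with the longer exon-free stretch is given.
Pfkfb3, chr2:11502102-11502340, minus strand: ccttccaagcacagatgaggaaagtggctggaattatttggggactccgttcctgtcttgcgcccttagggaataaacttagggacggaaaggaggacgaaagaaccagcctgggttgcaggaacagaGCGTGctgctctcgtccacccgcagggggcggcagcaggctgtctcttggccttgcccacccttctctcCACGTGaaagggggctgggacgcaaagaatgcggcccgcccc
Slc2a1, chr4:119108495-119108710, plus strand: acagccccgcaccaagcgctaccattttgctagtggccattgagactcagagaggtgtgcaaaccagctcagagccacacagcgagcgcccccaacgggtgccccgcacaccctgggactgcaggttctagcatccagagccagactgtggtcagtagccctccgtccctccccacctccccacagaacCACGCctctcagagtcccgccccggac
Hk2, chr6:82774455-82774704, minus strand: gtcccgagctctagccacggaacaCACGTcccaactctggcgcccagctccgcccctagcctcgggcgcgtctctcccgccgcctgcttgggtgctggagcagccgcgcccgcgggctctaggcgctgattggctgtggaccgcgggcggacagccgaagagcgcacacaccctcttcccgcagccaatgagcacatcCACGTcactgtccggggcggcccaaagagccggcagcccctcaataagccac
Hk3, chr13:55021386-55021635, minus strand: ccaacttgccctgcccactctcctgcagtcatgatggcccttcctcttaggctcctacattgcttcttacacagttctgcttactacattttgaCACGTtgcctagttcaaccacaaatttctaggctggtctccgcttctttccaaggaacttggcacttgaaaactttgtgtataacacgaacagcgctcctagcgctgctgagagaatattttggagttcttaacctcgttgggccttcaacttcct
Pfkp, chr13:6648778-6649021, minus strand: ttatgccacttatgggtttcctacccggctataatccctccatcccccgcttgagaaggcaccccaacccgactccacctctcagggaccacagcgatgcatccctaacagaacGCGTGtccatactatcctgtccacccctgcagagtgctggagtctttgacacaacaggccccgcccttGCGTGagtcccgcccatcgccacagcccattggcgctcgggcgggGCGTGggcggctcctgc
In Pfkfb3 the run CACGTG holds the core on both strands, and GCGTG lies upstream of it. Both cores in Hk2 are on the minus strand of the gene, and the 3 in Pfkp are GCGTG on the plus strand. Slc2a1 and Hk3 each have 1 core in the stretch shown, and the full window of 250 bases of Slc2a1 holds 2. The genes shown were chosen by their values and were lower, nearly equal or higher in SIRPα-KO. Whether cores go with the differences was not tested. Over all members, 39 of 46 windows of 250 bases (84.8%) hold at least 1 core, beside 56.2% of 10215 windows of genes counted and 38.6% of all 32851 windows. The mean GC content was 60.5% in windows of the members and 59.6% in those of genes counted. Some members were put on the list as hypoxia-response genes, and a match is a description of letters, not a bound site.

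The lower pathway, from fructose 1,6-bisphosphate to exported lactate, held the most abundant transcripts. Aldoa, the aldolase that splits the sugar, was at 394 FPKM in the WT library and 321 in the SIRPα-KO library (-0.29). Its paralog Aldoc was at 1.26 and 0.48 FPKM, about 23.6 and 8.98 reads, and the counting interval of its log2 ratio ran from -2.70 to -0.26. Tpi1, which interconverts the triose phosphates, was at 238 and 194 (-0.30). The fold of FPKM was 1.23 for both Aldoa and Tpi1.

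Gapdh, the dehydrogenase that yields NADH and a common reference gene, was at 1094 FPKM in the WT library and 1027 in the SIRPα-KO library (-0.09). Pgk1, the first ATP-yielding kinase of the pathway, was at 232 and 245 (0.08), the 1 gene of the lower pathway that was higher in SIRPα-KO. Pgk1 is on the X chromosome, and Xist differed between the libraries. Pgam1, the mutase, was at 261 and 183 (-0.52). Eno1, enolase, was at 247 and 195 (-0.34), and Pkm, pyruvate kinase, at 491 and 381 (-0.36). Steps of the lower pathway were therefore not shifted equally: the folds of FPKM were 1.07 for Gapdh and 1.43 for Pgam1.

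Ldha, the subunit that favours conversion of pyruvate to lactate, was at 483 FPKM in the WT library and 355 in the SIRPα-KO library (-0.45). Ldhb, the other subunit, was at 3.8 and 2.19 (-0.59). Slc16a3, which encodes the lactate exporter MCT4, was at 81.2 and 57.5 (-0.49). Ldha and Slc16a3 were thus each lower in SIRPα-KO by less than 1.5-fold, and Ldha held 99.2% and 99.4% of the summed dehydrogenase level.

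Several of these genes have processed copies in the genome. Of the 50-base words of the Gapdh transcripts 82.5% also occur in another annotated gene, as do 72.2% for Eno1, 68% for Pgk1 and 41.5% for Pgam1. None of the words of Hk2 or Hk3 do, and 1.74% of those of Slc2a1 and 0.537% of those of Pfkfb3. How the authors assigned reads with several matches is not given in the sources used here, so the values of genes with copies are less certain.

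Set against each other, the entry and the lower pathway had similar medians, -0.38 over 11 genes and -0.36 over 11 genes, and differed in spread on this scale. The entry genes ran from -2.19 to 0.58 and the lower genes from -0.61 to 0.08. The narrow range of all 11 lower genes rests on the pseudocount, since the log2 ratio of FPKM without it was -1.39 for Aldoc, beyond Slc2a1 and Hk2, and -0.80 for Ldhb. Among genes that reached 10 FPKM in either library, the medians were -0.51 over 8 entry genes (-2.19 to 0.58) and -0.34 over 9 lower genes (-0.52 to 0.08). Of those 8 entry genes, 3 were lower by at least 2-fold, of the 9 lower genes 0, and of all 4630 genes at that level 5.29%. The 3 are Pfkfb3, Slc2a1 and Hk2, which were given as markers of the gene list before the comparison. Members and lists were chosen with earlier results of these data known, so the contrast is a description. In sum the lower genes were at 3526 FPKM in the WT library and 2960 in the SIRPα-KO library, and all 22 glycolysis genes together held 1.01% of all FPKM in the WT library and 0.877% in the SIRPα-KO library. The plot of ratios with their counting intervals shows abundant entry genes on both sides of the abundant lower genes.

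**Figure D3:**
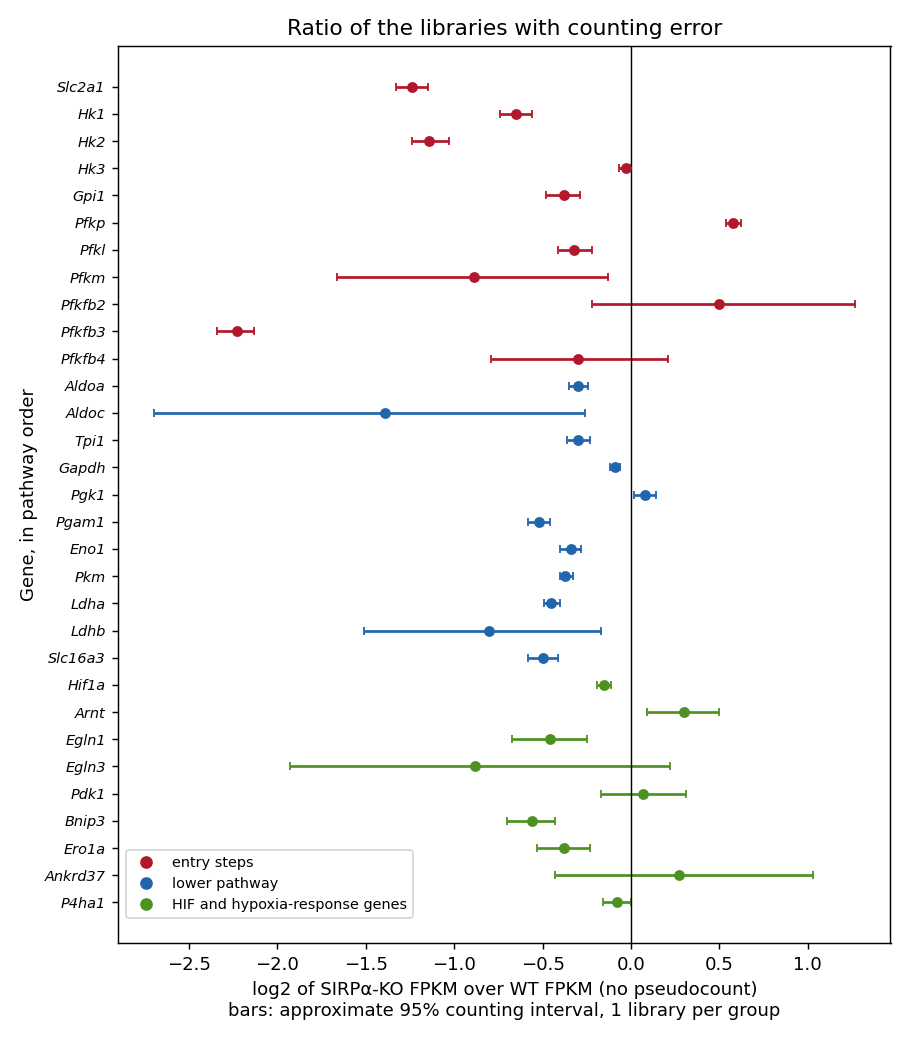
The log2 ratio of FPKM in SIRPα-KO over WT for each of the 31 genes, without a pseudocount, with approximate 95% counting intervals from the estimated reads. Pfkfb3 (-2.23), Slc2a1 (-1.24) and Hk2 (-1.14) lie apart from the abundant lower genes, and weakly expressed genes such as Aldoc (-2.70 to -0.26) have wide intervals.

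The subunits of HIF-1 differed by less than 1.5-fold, in opposite directions. Hif1a, the oxygen-regulated subunit, was at 211 FPKM in the WT library and 190 in the SIRPα-KO library (-0.15), and Arnt, its constant partner, at 9.23 and 11.3 (0.27). The counting intervals of their log2 ratios, -0.19 to -0.11 for Hif1a and 0.09 to 0.50 for Arnt, exclude equality for counting error alone. They cover neither differences between cultures nor the scaling of the libraries. With other scalings the difference ran from -0.12 to -0.23 for Hif1a and from 0.20 to 0.30 for Arnt. The hydroxylase gene Egln1 was at 11.5 and 8.4 (-0.42). Egln3, whose transcript is itself induced by HIF, was at 0.79 and 0.43 FPKM, about 23.1 and 12.6 reads, too few to set the libraries apart at this depth, with a counting interval of -1.93 to 0.22.

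Among the HIF targets outside glycolysis, Bnip3 and Ero1a were lower beyond counting error. Bnip3, a mitophagy receptor, was at 60.9 FPKM in the WT library and 41.2 in the SIRPα-KO library (-0.55), with an interval of -0.70 to -0.43 for the log2 ratio of FPKM. Of the 50-base words of Bnip3, 62.4% also occur in another annotated gene, and 22.3% of its exon bases overlap Gm45507 on the other strand. The value of Bnip3 is therefore less certain than its counting interval shows. Ero1a, an oxidase of disulfide formation in the endoplasmic reticulum, was at 16.9 and 13 (-0.35), with an interval of -0.53 to -0.23. P4ha1, a subunit of the collagen prolyl hydroxylase, was at 59.2 and 56.1 (-0.08). None of the 3 reached 1.5-fold. Pdk1, the kinase that switches off pyruvate dehydrogenase, was at 4.99 and 5.24 (0.06, with a sign that depended on the scaling of the libraries). Ankrd37 was at 3.06 and 3.69 (0.21). The intervals of Pdk1, -0.17 to 0.31, and Ankrd37, -0.43 to 1.03, include equality. The 8 genes of this group that were counted had a median of -0.11, with 5 below 0 and 3 above, beside 43.8% of all genes counted below 0. In the cumulative plot the group lies inside the range of most genes.

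**Figure D4:**
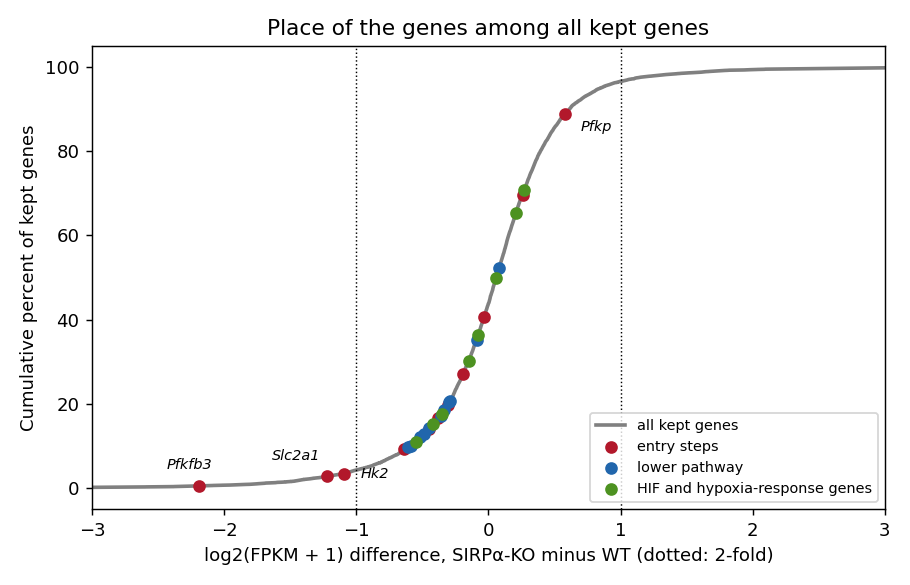
Cumulative percent of the 10092 genes counted (grey line) by log2(FPKM + 1) difference, SIRPα-KO minus WT, with the 30 counted members as points by group and dotted lines at 2-fold. Pfkfb3 (-2.19), Slc2a1 (-1.22) and Hk2 (-1.09) lie left of the 2-fold line, and Pfkp (0.58) is the rightmost member.

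A neighbouring list held other genes linked to glycolysis. Of 40 listed, 37 were in the tables and 29 were counted, with 0 lower and 0 higher by at least 2-fold, a median of 0.17, 11 below 0 and 18 above. The 37.9% below 0 is near the 43.8% of all genes counted, and 0 genes past 2-fold stand beside 4.3% lower and 3.43% higher. At a limit of 1.5-fold, 1 of the 29 was lower and 6 were higher, beside 10.2% and 10.9% of all genes counted. These counts hold for the log2(FPKM + 1) scale. By fold of FPKM, Pdp2 (2.49), Eno2 (2.24) and Pgam2 (2.23) were higher past 2-fold and Gys1 (2.07) was lower. The share of all genes past 2-fold by FPKM was not computed. Slc2a6, a glucose transporter family member and the most abundant of the 29, was at 241 FPKM in the WT library and 299 in the SIRPα-KO library (0.31), above Slc2a1 in both libraries. Eno2, the second enolase gene, was at 3.57 and 7.99 (0.98), opposite in sign to Eno1. This was just short of 2-fold on the log2(FPKM + 1) scale only, since its fold of FPKM was 2.24. Gys1, glycogen synthase, was at 5.27 and 2.54 (-0.82). Pdha1, a subunit of pyruvate dehydrogenase, was at 11.2 and 21.5 (0.88). Eno2, Gys1, Pdha1, Pdp2 and Pgam2 were named after their values were seen.

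The pentose phosphate branch, which leaves glycolysis at glucose 6-phosphate and yields NADPH and ribose, had 8 of 9 genes counted, with a median of 0.04. The 1 gene lower by at least 2-fold, beside 4.3% of all genes counted, was H6pd, its isoform in the endoplasmic reticulum, at 3.84 FPKM in the WT library and 1.35 in the SIRPα-KO library (-1.04). The other genes counted ran from -0.02 for Tkt to 0.19 for Rpia, and Pgd, the most abundant, was at 190 and 209.

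A further list held other genes of the HIF pathway. Of 42 listed, 41 were in the tables and 30 were counted, with 2 lower and 1 higher by at least 2-fold and a median of -0.18 (-0.04 with no filter on low values). The share that was lower, 6.67%, is near the 4.3% of all genes counted, and 1 higher gene of 30 is near the 3.43%. Edn1, the endothelin-1 precursor, was at 18.8 FPKM in the WT library and 6.5 in the SIRPα-KO library (-1.40), and the repressor Bhlhe40 at 11 and 4.85 (-1.04). Cited2, which competes with HIF-1α for its coactivators, was the higher gene, at 61.4 and 136 (1.14). Vegfa, the classical angiogenic target, was at 23.6 and 11.5 (-0.98) and was named after its value was seen. It was just short of the limit on the log2(FPKM + 1) scale only, since its fold of FPKM was 2.06. The most abundant gene, Anxa2, was at 324 and 471 (0.54). The plot of pathway lists sets these groups side by side.

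**Figure D5:**
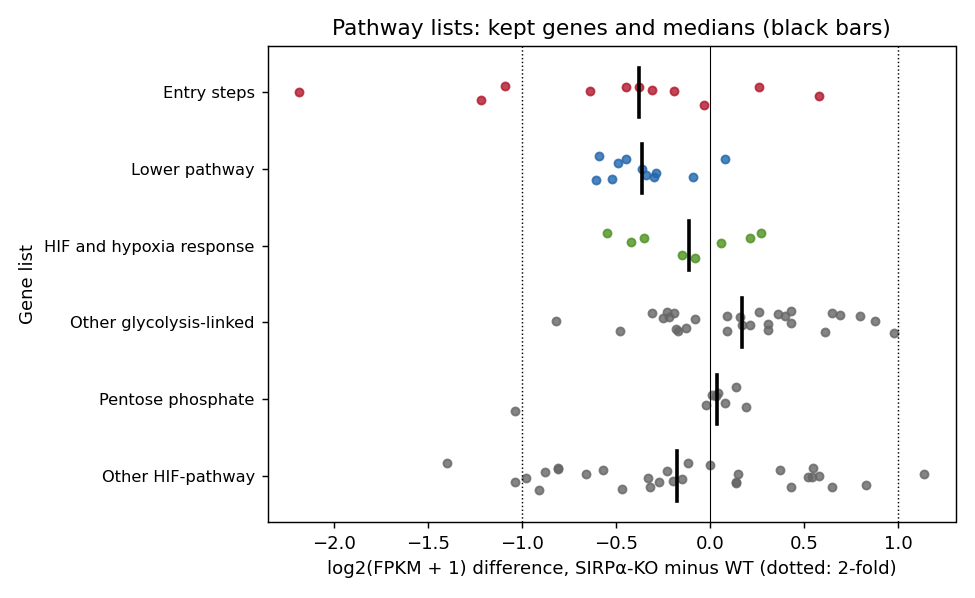
The log2(FPKM + 1) difference, SIRPα-KO minus WT, of every counted gene (points, spread vertically for visibility) in 6 pathway lists, with list medians as black bars and dotted lines at 2-fold. Medians are -0.38 and -0.36 for the entry and lower genes, -0.11 for the hypoxia group, 0.17 for other glycolysis-linked genes, 0.04 for the pentose phosphate branch and -0.18 for other HIF-pathway genes.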

How the data were processed

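RNA was profiled in 2 libraries, 1 per genotype. The authors deposited 1 table per library with 1 normalized value per gene, which is taken here as FPKM. The unit was inferred from the decimals, from sums of 444294 and 433460 and from low-value steps that scale with transcript length, since the headers name no unit. The submitters' processing notes name mm9, R 3.3.3 and DESeq2 without a role; aligner, counter and strandedness: not given in the sources used here. In the low values 67.9% (WT) and 67.7% (SIRPα-KO) lay within 0.15 of a whole read at the best depth, so whole reads were not recovered for nearly all genes and no count test was run.

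Differences are log2(FPKM + 1), SIRPα-KO minus WT, over genes that reached 1 FPKM in either library; counts past 2-fold are descriptions, with no test. Reads were estimated with GENCODE M21 transcript lengths (GRCm38), averaged over a gene's listed transcripts, so counting intervals are approximate. Gene numbers matched RefSeq for 16211 genes. The calculation was tested on simulated data (Python 3.11.15, pandas 2.3.3, scipy 1.17.1). Named genes were Sirpa, all 31 members and, from each neighbouring list, genes past 2-fold and the most abundant gene. Other genes named in the text were chosen after their values were seen. Members and lists were chosen with earlier results of these data known.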

Additional observations from a re-analysis of the deposited data

How the results depend on the processing

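With a pseudocount of 0.1, no filter, a minimum of 5 FPKM, or scaling to equal sums, by median of ratios or by trimmed mean, Pfkfb3, Slc2a1 and Hk2 stayed lower by at least 2-fold and 0 members were higher by that limit. Aldoc joined them with the pseudocount of 0.1. Members lower numbered 6 at a limit of 1.5-fold and 1 at 3-fold. Over all genes counted, 434 were lower and 346 higher at 2-fold, 1032 and 1103 at 1.5-fold, 140 and 130 at 3-fold, and 676 and 589 with the pseudocount of 0.1. The entry median was -0.51 with a minimum of 5 FPKM, and the median of other HIF-pathway genes was -0.04 with no filter and -0.06 with that minimum. In 2 alternatives chosen after seeing the data, the members' median was -0.31 without genes sharing at least 20% of their 50-base words with another annotated gene and -0.35 with a minimum of 10 FPKM. No paired analysis was possible because each genotype has 1 library, and for the same reason no library could be left out. Depth limits weakly expressed members such as Aldoc, Egln3 and Pfkfb2, whose counting intervals are wide.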

Other observations

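Some pairs of related enzymes or transporters had differences of opposite sign, given as FPKM in WT and then SIRPα-KO. Pfkp (172 and 257) stood against Pfkl (47.6 and 38.2), Eno2 (3.57 and 7.99) against Eno1 (247 and 195), and Slc2a6 (241 and 299) against Slc2a1 (89 and 37.6). These pairs were picked after their values were seen, and in the enolase pair Eno1 has annotated copies that share 72.2% of its 50-base words.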
